A study of Mus musculus with 3 samples.

Results

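The genes examined here encode canonical poly(A) polymerases, poly(A) binding proteins (PABPs) and proteins that bind PABPs, 10 in all, chosen by symbol from the 17946 genes of a round spermatid transcriptome table. The lowest value of any gene was 0.01 in each library, so a value above 0 is common to all genes of the table. All 10 genes of the set were found, each under 1 identifier. They are the poly(A) polymerase genes Papolb, Papola and Papolg, the cytoplasmic PABP genes Pabpc2, Pabpc1 and Pabpc4, the nuclear PABP gene Pabpn1, and the PABP-interacting genes Paip2, Paip2b and Paip1. The choice used symbols and not values, but it was made with earlier results of these data known.

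A poly(A) polymerase adds the adenosine tail to a new messenger RNA (mRNA) in the nucleus, and PABPs coat the tail, protect it and, in the cytoplasm, link it to the cap through the initiation factor eIF4G. PAIP1 stimulates translation through PABP, whereas PAIP2 and PAIP2B displace PABP from the tail and from eIF4G. Haploid male germ cells store many transcripts before translating them, and tail length changes when a stored mRNA is activated. In the mouse, Papolb encodes a testis-specific polymerase that acts largely in the cytoplasm, and males without it do not complete round spermatid development. Pabpc2 encodes a PABP of the mouse testis, and loss of Paip2 in mice impairs late spermatid development.

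Round spermatids, the haploid cells formed by meiosis, came from 28-day-old male C57BL/6 mice of 3 genotypes: MiwiΔIns, MiwiR371W and wild type. Both mutant names refer to alleles of Miwi (Piwil1), a PIWI gene of the male germline; whether the mice carried 1 or both copies, and how many mice were pooled, is not given in the sources used here. The cells were separated by flow sorting after Hoechst 33342 staining, and each genotype was represented by 1 mRNA library. Without replicates no test could be made, and every difference below compares single libraries. Piwil1 itself was at 23.2 in MiwiΔIns, 23.45 in MiwiR371W and 20.3 in wild type, and such a gene level does not check which allele a library carries. Expression is the authors' deposited signal, normalised to transcript length and library size, which allows levels of different genes to be compared within a library.

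Log2 ratios were taken of the value plus 1, and a gene was counted as past the size rule when it differed at least 2-fold on that scale and reached 5 in the higher library. The smallest values fell on steps that gave the relative depth: relative to wild type, a given value stood for 1.08 times the fragments in MiwiΔIns and 0.78 times in MiwiR371W. Fragment numbers given below are estimates from these steps and the length of the coding transcripts. Their 95% exact (Clopper-Pearson) intervals cover counting error only, and for genes with transcripts of several lengths they are approximate.

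The order of the 10 genes by level was the same in all 3 libraries: Pabpc1, Pabpc2, Papolb, Pabpn1, Paip2, Papola, Paip2b, Paip1, Papolg and Pabpc4. Their levels covered a very wide range. Pabpc1 ranked 8 of 17946 genes in MiwiΔIns, 5 in MiwiR371W and 5 in wild type, whereas Pabpc4 ranked 17318, 17655 and 16463 in the same libraries. In the mutants Pabpn1 and Paip2, neighbours in that order, had nearly equal levels: they were at 226 and 216 in MiwiΔIns, 173 and 167 in MiwiR371W, and 226 and 158 in wild type. In bulk libraries, fewer cells of a type and less RNA per cell cannot be told apart.

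**Figure D1:**
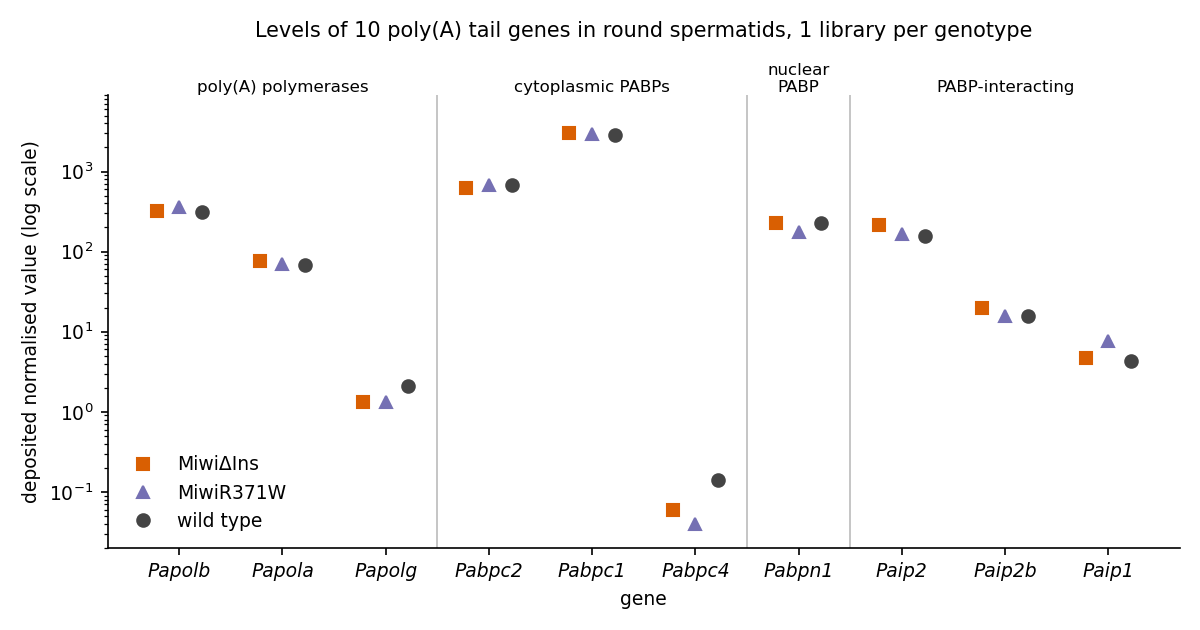
Deposited normalised value (log axis) of each of the 10 genes, with 1 point per library: MiwiΔIns (squares), MiwiR371W (triangles) and wild type (circles). The points of Pabpn1 (173 to 226) and Paip2 (158 to 216) overlap in level, and Pabpc4 sits lowest, at 0.06, 0.04 and 0.14.

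Among the polymerases, the testis-specific Papolb was the most abundant in every library. Papolb (GRCm38 chr5:142525838-142530076, minus strand) had a value of 324 in MiwiΔIns, 356 in MiwiR371W and 311 in wild type. Papola (chr12:105784694-105838944, plus strand), the general nuclear polymerase, was at 76.1 in MiwiΔIns, 70.2 in MiwiR371W and 67.7 in wild type. Papolg (chr11:23862646-23895253, minus strand), a further nuclear polymerase gene, was at 1.34 in MiwiΔIns, 1.33 in MiwiR371W and 2.11 in wild type. Papolb thus exceeded Papola in each library and Papolg was low in all 3, with an estimated 37, 26 and 53 fragments.

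The annotation (GENCODE M21) gives Papolb a single exon of 4239 nt, against 22 exons in the longest coding transcript of Papola. Their coding sequences, of 1929 and 2220 nt, were 85.2% identical over 1926 aligned bases. The start of the alignment is shown because the value of Papolb against Papola rests on reads that can be assigned to 1 of them. Coding bases 4 to 123 of Papolb and 1 to 120 of Papola, from the GENCODE M21 transcripts on GRCm38, are given 5′ to 3′ on the coding strand, with the 34 positions that differ in capitals.
Papolb: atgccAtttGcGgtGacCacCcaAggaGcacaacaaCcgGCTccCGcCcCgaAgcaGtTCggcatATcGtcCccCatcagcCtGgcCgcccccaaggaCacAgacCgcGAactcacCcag
Papola: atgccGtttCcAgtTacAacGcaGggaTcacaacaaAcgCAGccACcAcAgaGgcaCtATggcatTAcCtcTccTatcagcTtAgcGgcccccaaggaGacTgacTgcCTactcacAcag

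The longest run that the coding sequences of both genes share is 65 nt, at coding bases 928 to 992 of Papolb and 925 to 989 of Papola. It is shown because it is where a short read could come from either gene.
Shared run: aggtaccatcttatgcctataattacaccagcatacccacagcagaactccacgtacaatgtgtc
Of all 50-nt words of the longest coding transcript, 0.382% in Papolb and 1.04% in Papola also occurred in transcripts of other annotated genes. Little of either transcript was therefore ambiguous at that word length; the read length is not given in the sources used here.

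Within a library, Papolb over Papola was 4.26 in MiwiΔIns (log2 2.09, counting interval 2.03 to 2.15), 5.07 in MiwiR371W (2.34, 2.27 to 2.42) and 4.59 in wild type (2.20, 2.13 to 2.27). The wild-type ratio lay between those of the mutants on the values as deposited. Scaling a library by a constant does not change such a ratio. On the log2 scale it differed from wild type by −0.11 in MiwiΔIns and 0.14 in MiwiR371W. With a trend on GC content and length removed, the log2 ratios of Papolb and Papola were both 0.01 in MiwiΔIns against wild type. They were 0.09 and −0.01 in MiwiR371W against wild type. Wild type was then no longer clearly between the mutants. Papolb made up 80.7% of the summed value of the 3 polymerases in MiwiΔIns, 83.3% in MiwiR371W and 81.7% in wild type. Papolg held 0.334%, 0.311% and 0.554% of the same sums.

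Cytoplasmic PABPs had the opposite order, with the general gene above the testis gene. Pabpc1 (chr15:36595661-36609668, minus strand), the main PABP of most cells, was at 3040 in MiwiΔIns, 2933 in MiwiR371W and 2849 in wild type. Pabpc2 (chromosome 18, plus strand) was at 623 in MiwiΔIns, 688 in MiwiR371W and 679 in wild type. Pabpc1 thus exceeded Pabpc2 by 4.88 times in MiwiΔIns, 4.26 times in MiwiR371W and 4.2 times in wild type. The corresponding log2 ratio of Pabpc2 over Pabpc1 was −2.29, −2.09 and −2.07 in the same libraries. MiwiR371W and wild type were thus nearly alike, and MiwiΔIns was lower by 0.22 than wild type on the values as deposited. The log2 ratios of MiwiΔIns to wild type behind this gap were 0.09 for Pabpc1 and −0.12 for Pabpc2. With a trend on GC content and length removed they were −0.10 and −0.17, so the gap narrowed.

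Like Papolb, Pabpc2 is annotated as a single exon, of 2586 nt, whereas the longest coding transcript of Pabpc1 has 15 exons. Its coding sequence was 83.3% identical to that of Pabpc1 over 1881 aligned bases, the longest shared run was 37 nt, and 0 of its 50-nt words occurred in another annotated gene. For Pabpc1 20.7% of the words recurred, in 3 processed pseudogenes. The Pabpc1 pseudogene Gm16580, which holds 14.8% of the words and was chosen after its values were seen, had values of 18.8 in MiwiΔIns, 15.1 in MiwiR371W and 20.9 in wild type. Those values were small beside the level of Pabpc1. A further single-exon paralog that is not among the 10 genes, Pabpc6 (83.4% identical to Pabpc1), was at 189 in MiwiΔIns, 274 in MiwiR371W and 198 in wild type.

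Pabpc4 (chr4:123262351-123298925, plus strand), which encodes an inducible cytoplasmic PABP, stood at the other end of the family, at 0.06 in MiwiΔIns, 0.04 in MiwiR371W and 0.14 in wild type. These values corresponded to an estimated 2, 1 and 5 fragments, too few to compare the libraries. Its log2 ratio without pseudocount was −1.22 in MiwiΔIns against wild type, with a counting interval from −4.83 to 1.18, and −1.81 in MiwiR371W, from −7.53 to 1.20. The reading carries a limit of its own: 70.7% of its 50-nt words also occurred in other annotated genes. The transcribed pseudogene Gm10110, which has no entry among the genes of the table, held 67.5%. How the authors' processing divided such reads is not given in the sources used here.

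The coding sequences of Pabpc4 and Pabpc1 were 74.1% identical over 1816 aligned bases, with no shared run above 18 nt. In all 3 libraries Pabpc1 and Pabpc2 together made up nearly the whole summed value of these 3 genes. Pabpc1 held 83.0%, 81.0% and 80.8% and Pabpc2 17.0%, 19.0% and 19.2% in MiwiΔIns, MiwiR371W and wild type.

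**Figure D2:**
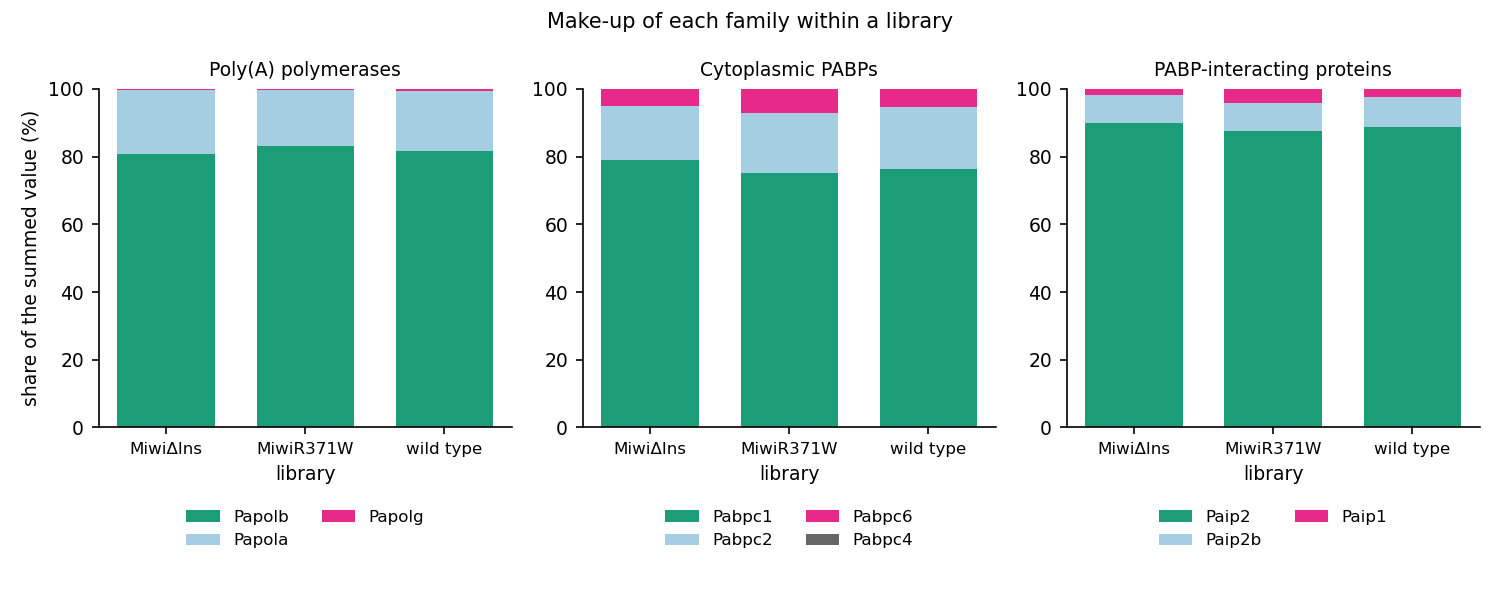
Share of the summed deposited value held by each gene (percent, stacked bars from 0) in the MiwiΔIns, MiwiR371W and wild-type libraries, for the polymerases, the cytoplasmic PABPs with Pabpc6 added, and the PABP-interacting genes. The testis gene Papolb holds 80.7 to 83.3% of the polymerase sum, whereas the general gene Pabpc1 holds 75.3 to 78.9% of the PABP sum.

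The nuclear PABP gene Pabpn1 (chr14:54892500-54898169, plus strand), whose protein promotes tail synthesis and limits tail length, was at 226 in MiwiΔIns, 173 in MiwiR371W and 226 in wild type. MiwiR371W was the low library and the other 2 were equal to 3 digits. The log2 ratio of MiwiR371W was −0.38 to wild type and −0.38 to MiwiΔIns, and that of MiwiΔIns to wild type was 0.00. Without pseudocount, counting intervals for MiwiR371W were −0.46 to −0.32 and −0.45 to −0.31, and neither reached 0. Pabpn1 had an estimated 2663 fragments in that library. Such intervals cover counting error only. Among genes with a mean of at least 50, log2 ratios of MiwiR371W to wild type ran from −0.62 (5th percentile) to 0.45 (95th percentile). Those to MiwiΔIns ran from −0.85 to 0.44, and −0.38 lay inside both ranges. A gene annotated on the same strand, Gm20521, overlaps the exons of Pabpn1 and holds 27.3% of its 50-nt words. Gm20521 has no entry among the genes of the table. How reads of the shared part were assigned is not given in the sources used here, which limits the level and ratios of Pabpn1.

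Of the PABP-interacting genes, the translational inhibitor Paip2 (chromosome 18, plus strand) was at 216 in MiwiΔIns, 167 in MiwiR371W and 158 in wild type. MiwiΔIns was the high library, with a log2 ratio of 0.45 to wild type. In that comparison, genes with a mean of at least 50 ran from −0.37 (5th percentile) to 0.60 (95th percentile), a range that includes 0.45. MiwiR371W had a log2 ratio of 0.08 to wild type and −0.37 to MiwiΔIns. Its paralog Paip2b (chr6:83805401-83831741, minus strand), an inhibitor of the same kind, was at 19.7 in MiwiΔIns, 15.9 in MiwiR371W and 15.5 in wild type. It was highest in the same library, with a log2 ratio of 0.33 for MiwiΔIns against wild type. Paip2b over Paip2 was 0.0912 in MiwiΔIns, 0.0953 in MiwiR371W and 0.0985 in wild type, and the counting intervals of these 3 ratios overlapped.

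Paip1 (chr13:119428601-119458218, plus strand), which encodes the stimulator, was much less abundant, at 4.63 in MiwiΔIns, 7.72 in MiwiR371W and 4.34 in wild type. Here MiwiR371W was the high library, and its log2 ratio to wild type, 0.71, was the largest of the 30 ratios computed for the 10 genes. Without pseudocount that ratio was 0.83, with a counting interval from 0.40 to 1.27 on an estimated 108 and 78 fragments. Against MiwiΔIns the log2 ratio of MiwiR371W was 0.63. For all genes tested, ratios of MiwiR371W to wild type ran from −0.72 (5th percentile) to 0.67 (95th percentile). Those to MiwiΔIns ran from −0.89 to 0.64. For Paip1, 0.71 thus lay just past the first range and 0.63 just inside the second. Both ranges include genes far more abundant than Paip1. Paip1 reached the minimum of 5 only through the MiwiR371W library, and neither ratio was past the size rule.

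The cytoplasmic PABP transcripts of Pabpc1, Pabpc2 and Pabpc4 together exceeded those of the inhibitors Paip2 and Paip2b by 15.5 times in MiwiΔIns, 19.8 times in MiwiR371W and 20.4 times in wild type. The MiwiΔIns ratio was the lowest, by 0.39 on the log2 scale relative to wild type. That of MiwiR371W differed from wild type by −0.04. In MiwiΔIns against wild type the log2 ratios of Pabpc1 and Pabpc2 were 0.09 and −0.12, beside 0.45 for Paip2 and 0.33 for Paip2b.

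**Figure D3:**
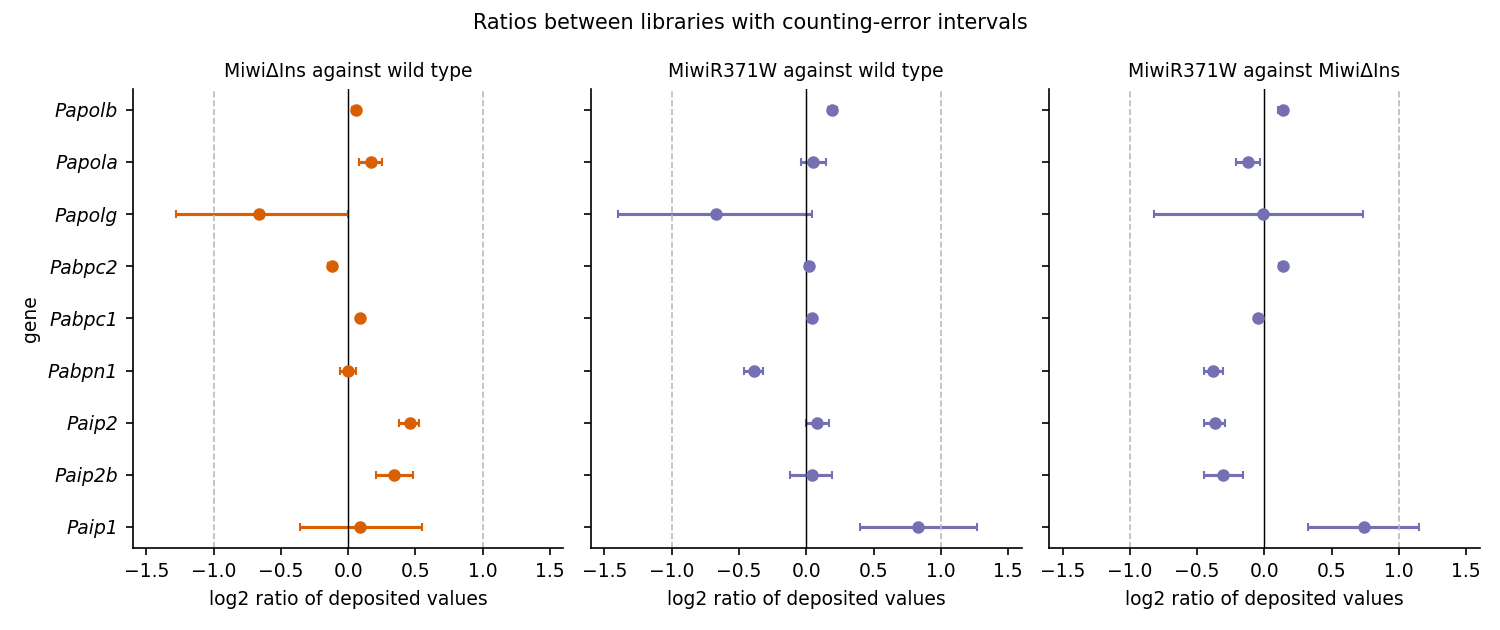
Log2 ratio of deposited values (no pseudocount) for 9 genes in each of the 3 comparisons, with bars for 95% intervals of counting error and dashed lines at a 2-fold difference. Every point lies inside the dashed lines, with Paip1 in MiwiR371W against wild type the farthest from 0, at 0.83; Pabpc4 is left out because it rests on 1 to 5 fragments.

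No gene of the set was past the size rule in any comparison. In MiwiΔIns against wild type 0 of the 7 genes that reached 5 were past it, beside 2.06% of the 8550 genes tested (1.30% higher and 0.760% lower). In MiwiR371W against wild type it was 0 of 8, beside 3.30% of 8719 genes (1.46% higher and 1.85% lower), and in MiwiR371W against MiwiΔIns 0 of 8, beside 4.48% of 8744 genes (1.27% higher and 3.21% lower). At these shares, a count of 0 among 7 or 8 genes is near the background and is not a result about the set. The wild-type library is shared by the first 2 of these comparisons.

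The median log2 ratio of the 10 genes was 0.07 in MiwiΔIns against wild type, beside 0.04 for all genes tested. It was 0.04 beside 0.03 in MiwiR371W against wild type and −0.04 beside 0.01 between the mutants. Disregarding sign, the median size of the members' log2 ratios was 0.11, 0.11 and 0.14 in the 3 comparisons, and that of all genes tested 0.21, 0.26 and 0.29. Among genes with a mean of at least 50, a level reached by 6 of the 10 genes, it was 0.19, 0.20 and 0.25. These sets are unlike: the medians of the set cover all 10 genes, of which only 7 or 8 reached 5 in a comparison. Adding 1 to each value also pulls the ratios of very low genes such as Pabpc4 towards 0. Pabpc1, Pabpc2, Papola and Papolb were within 0.20 of wild type on the log2 scale in both mutants on the values as deposited. With libraries scaled to equal sums, Pabpc2 was at −0.23 in MiwiΔIns and Papolb at 0.23 in MiwiR371W.

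**Figure D4:**
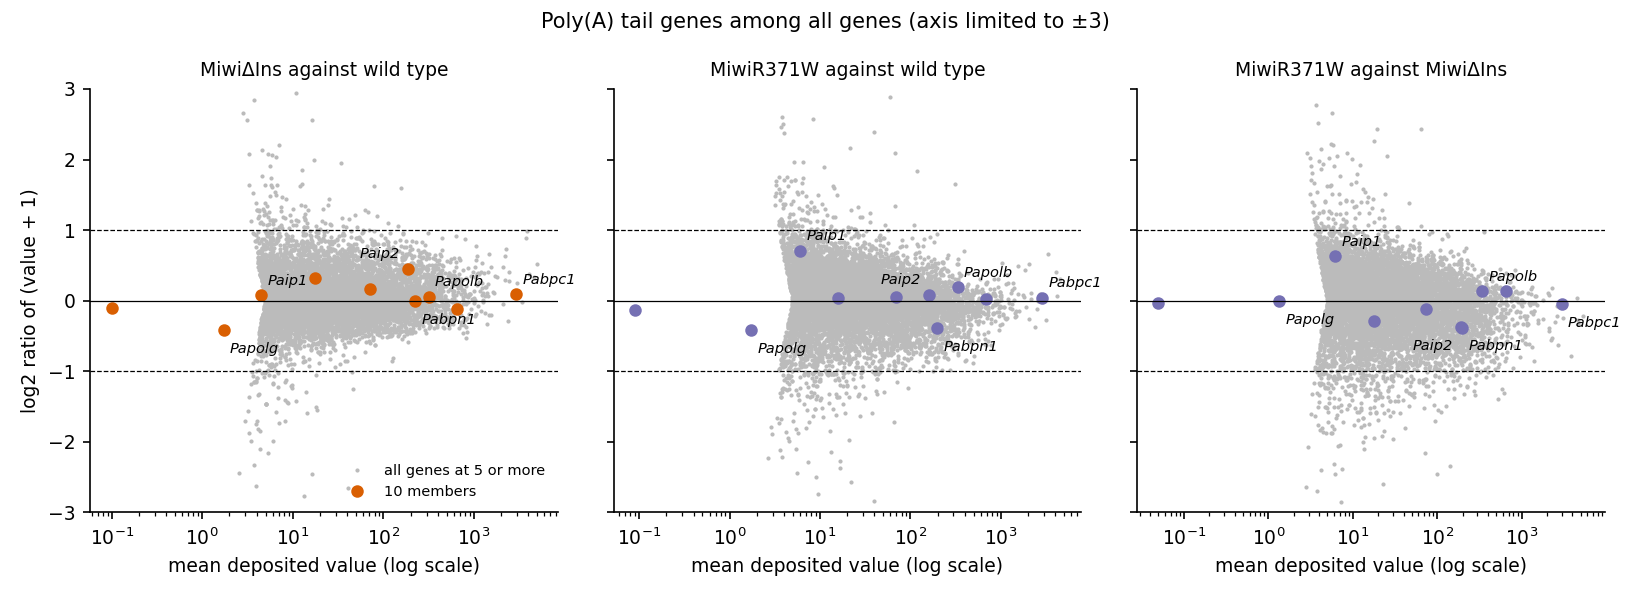
Log2 ratio of (value + 1) against mean deposited value (log axis) for all genes that reached 5 (grey) and for the 10 genes of the set (coloured), in the 3 comparisons, with dashed lines at a 2-fold difference and the vertical axis limited to ±3. All 10 genes lie between the dashed lines, from −0.42 to 0.71, and Pabpc1 and Papolb are at the abundant end near 0.

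Directions of small ratios depended on the scaling. Over the pseudocounts, scalings and trend correction tried, 12 of the 30 ratios took both signs, among them all 3 of Pabpc1 and that of Papolb in MiwiΔIns against wild type. Ratios that kept their sign throughout included Paip2 (0.26 to 0.46) and Paip2b (0.22 to 0.34) in MiwiΔIns against wild type. In MiwiR371W against wild type they included Pabpn1 (−0.45 to −0.33), Paip1 (0.45 to 0.82) and Papolb (0.09 to 0.25). Papolg kept its sign in MiwiΔIns (−0.62 to −0.17) and in MiwiR371W (−0.63 to −0.17) against wild type. Its counting intervals without pseudocount were −1.28 to 0.00 and −1.40 to 0.04. In MiwiΔIns against wild type, log2 ratios were lower for genes of higher transcript GC content across 12374 genes (Spearman rho −0.35, genes not being independent replicates). Paip2 has a median transcript GC content of 42.6%, against a median of 50.2% over the genes of the table. With the trend on GC content and length removed, its ratio was 0.26, the lowest of its range. Paip2b has a GC content of 50.8%, and its ratio was 0.33 as deposited and 0.25 with the trend removed. The part of GC content in these ratios was not tested.

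Related genes outside the set were read from lists chosen with earlier results known. The shares past the rule over all genes tested, 2.06%, 3.30% and 4.48% in the 3 comparisons, stand beside each count that follows, and a count of 0 or 1 in lists of this size is near them. Of 21 measured genes of the cleavage and polyadenylation machinery, 16 reached 5 in MiwiΔIns against wild type and 0 of them were past the rule. In MiwiR371W it was 1 of 18 against wild type and 0 of 18 against MiwiΔIns. The gene was Cpsf6, a subunit of cleavage factor I that takes part in poly(A) site choice, at 11.1 in MiwiR371W and 4.57 in wild type (log2 1.11), and at 6.04 in MiwiΔIns. With a pseudocount of 5 its ratio was 0.75 and no longer past the rule. The list's median in MiwiR371W against wild type was 0.13, beside 0.03 for all genes tested.

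Of 11 measured genes for non-canonical poly(A) and terminal nucleotidyl transferases, 8 reached 5 in each comparison and 0 of them were past the rule. The most abundant were Fam46c, at 120 in MiwiΔIns, 136 in MiwiR371W and 131 in wild type, and Papd5, at 61.0, 62.7 and 60.2. Both belong to enzymes that extend RNA tails outside the canonical polymerase family. Of 10 measured genes of cytoplasmic polyadenylation, 7 or 8 reached 5 in a comparison and 0 of them were past it. The CPEB family gene Cpeb2 was at 156 in MiwiΔIns, 133 in MiwiR371W and 181 in wild type, and the DAZ family gene Boll at 89.0, 104 and 85.9.

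For cap and PABP translation partners 22 symbols were measured under 23 identifiers, with Tob2 listed under 2. Of these identifiers 18 reached 5 in each comparison and 0 of them were past the rule. Atxn2l, a paralog of the PABP partner ataxin-2, was at 408 in MiwiΔIns, 496 in MiwiR371W and 531 in wild type. Eif4g2, a relative of eIF4G, was at 213, 263 and 219. Of 6 measured genes for further poly(A) or RNA binding proteins, 5 reached 5 in each comparison and 0 of them were past the rule. Their median log2 ratio was 0.01 in MiwiΔIns and 0.27 in MiwiR371W, each against wild type. The most abundant, with Pabpc6, was the nuclear poly(A) binding protein gene Zc3h14, at 270 in MiwiΔIns, 276 in MiwiR371W and 256 in wild type.

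**Figure D5:**
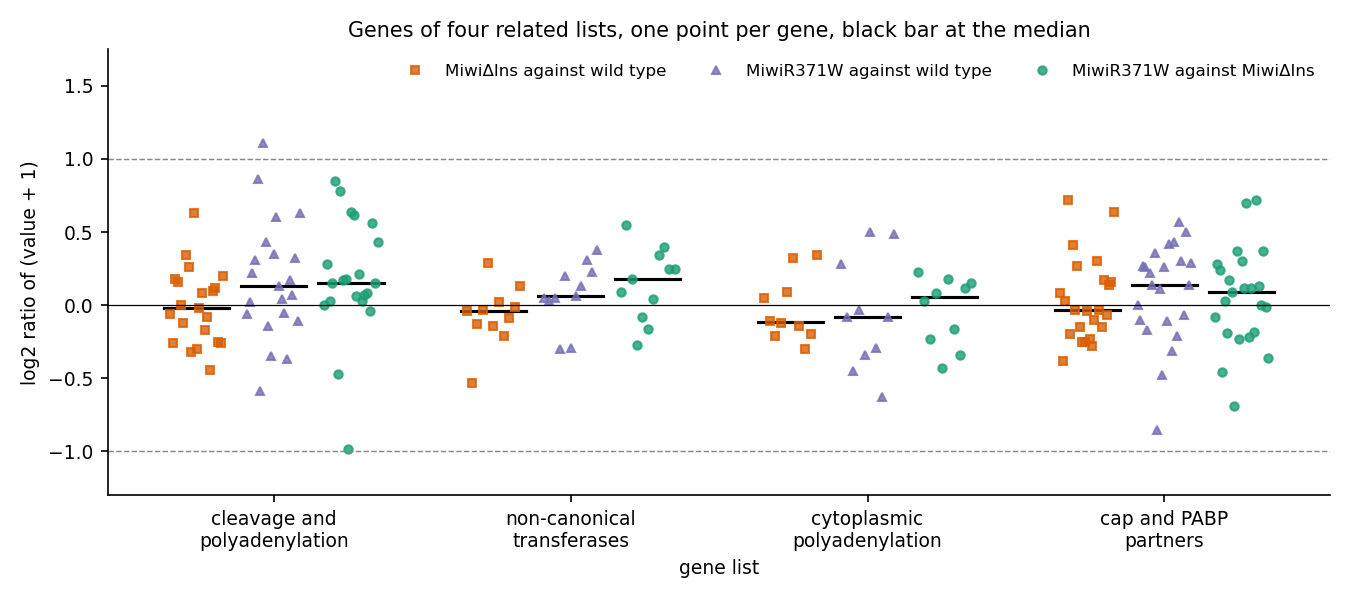
Log2 ratio of (value + 1) for each measured gene of 4 related lists (points) with the list median (black bar), for MiwiΔIns against wild type (squares), MiwiR371W against wild type (triangles) and MiwiR371W against MiwiΔIns (circles). Dashed lines mark a 2-fold difference, which Cpsf6 exceeds in MiwiR371W against wild type at 1.11.

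The label of the cells was checked on marker genes. All 12 of 12 round spermatid markers were measured, and their values summed to 23010 in MiwiΔIns, 18820 in MiwiR371W and 16730 in wild type. Most of these sums came from Prm1, Prm2, Tnp1 and Tnp2. The list's median log2 ratio to wild type was 0.25 in MiwiΔIns, with 9 of 12 positive, and 0.08 in MiwiR371W, with 7 of 12 positive. In MiwiR371W against wild type, Acrv1 (−0.47), Spaca1 (−0.55), Tssk1 (−0.57) and Tssk2 (−0.63) had the lowest ratios. Spermatocyte markers (14 of 14) summed to 1479, 1565 and 1639, in which Hspa2 alone held 664, 855 and 958. Their median log2 ratio to wild type was 0.13 in MiwiΔIns and 0.10 in MiwiR371W, with 9 of 14 positive in each, so sum and median differed in direction. Spermatogonial markers (9 of 10) summed to 24.1, 26.9 and 24.8. Sums were 29.1, 32.8 and 41.9 for Sertoli (9 of 11), 7.49, 6.44 and 3.85 for Leydig (5 of 6), 2.70, 3.09 and 1.70 for macrophage (4 of 6) and 8.19, 16.8 and 8.27 for peritubular and endothelial markers (6 of 6). Of the defining markers, Sox9 and Amh (Sertoli) and Adgre1 and C1qa (macrophage) were looked for but not found under these symbols. The smooth muscle actin gene Acta2 of the last list was past the rule at 5.53 in MiwiR371W against 1.01 in wild type (log2 1.70; 0.81 with a pseudocount of 5). MiwiΔIns was at 2.17, against which the log2 ratio of MiwiR371W was 1.04. The part of these markers in the values of the poly(A) tail genes, Paip1 in MiwiR371W included, was not tested.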

How the data were processed

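Messenger RNA of sorted round spermatids was measured in 3 libraries, 1 per genotype. The authors deposited 1 table of genes whose values are a signal normalised to transcript length and library size; whether FPKM or TPM is not given in the sources used here. Trim Galore 0.5.0, STAR, RSEM and mm10 (GRCm38) are named in the submitters' processing notes, without settings. Ratios were log2((x + 1)/(y + 1)), and the size rule asked for a 2-fold difference and at least 5 in the higher library. With 1 library per genotype no test was run. The size of 1 fragment was read from the steps of low values in single-transcript genes of 800 to 2500 nt, a choice made after seeing the data: 0.0685 value × kb in MiwiΔIns, 0.095 in MiwiR371W and 0.074 in wild type, at 300 nt subtracted from the length. A value of 5 at 1 kb thus rested on about 73, 53 and 68 fragments. Fragment estimates of a gene used the median length of its coding transcripts of at least 1000 nt.

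GENCODE M21 gave positions, lengths, GC content and shared 50-nt words, matched without identifier version for 17673 genes (98.5%). The members and gene lists were chosen with earlier results of these data known. All 10 members are named; from each list, every gene past the rule, otherwise the 2 most abundant (marker lists are given as sums, with markers named after their values were seen). The scripts were tested on simulated data. Python 3.11.15, numpy 2.4.6, pandas 2.3.3 and scipy 1.17.1 were used.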

Additional observations from a re-analysis of the deposited data

How the results depend on the processing

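No paired analysis was possible because each genotype has 1 library. The count of members past the size rule was 0 under each pseudocount, minimum value, scaling and trend correction tried, in all 3 comparisons. The count of all genes past it was 176 in MiwiΔIns against wild type, and became 50 with a pseudocount of 5, 302 with no minimum value and 91 with a minimum of 10. In MiwiR371W against wild type it was 288, and became 84, 500 and 174 under the same settings. Between the mutants it was 392, and became 174 with a pseudocount of 5 and 638 with no minimum.

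Scaling to equal sums turned 111 higher and 281 lower genes in MiwiR371W against MiwiΔIns into 169 and 184, and moved the median of the genes tested from 0.01 to 0.15. Leaving out mitochondrial and the 50 most abundant genes gave 162 and 193, with a median of 0.14. In MiwiΔIns against wild type, equal sums turned 111 higher and 65 lower genes into 83 and 74 (median 0.04 to −0.07). In MiwiR371W against wild type, equal medians gave 102 and 199 in place of 127 and 161, and leaving out the abundant genes 154 and 127. The only other setting tried directly on the within-library ratios was a pseudocount of 1 on each value. It can hardly move ratios of values far above 1, and the trend correction was not applied to these ratios directly. Only Pabpc4 over Pabpc1 moved, because Pabpc4 lies far below 1. With the pseudocount it was −11.49 in MiwiΔIns, −11.46 in MiwiR371W and −11.29 in wild type, against −15.63, −16.16 and −14.31 without it. Depth limits Pabpc4 and Papolg, and the absence of replicates limits every ratio.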

Other observations

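Of 10 genes for haploid transcription regulators and chromatin proteins, each of which reached 5, 0 were past the size rule, beside 2.06%, 3.30% and 4.48% of all genes tested in the 3 comparisons. The protamine gene Prm1 was at 5776 in MiwiΔIns, 4989 in MiwiR371W and 4043 in wild type, and the transition protein gene Tnp2 at 5167, 4265 and 4085. Their transcripts are stored in round spermatids and translated later. The list's median log2 ratio was 0.24 in MiwiΔIns against wild type, 0.04 in MiwiR371W against wild type and −0.13 in MiwiR371W against MiwiΔIns. All genes tested had medians of 0.04, 0.03 and 0.01. Prm1, Prm2, Tnp1 and Tnp2 are also round spermatid markers, so this is not an observation separate from that list. Scaling to equal sums multiplied the MiwiΔIns values by 0.9285, which lowers their ratios to wild type.

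Pabpc6, like Papolb and Pabpc2, is annotated as a single exon (3223 nt), and 0 of its 50-nt words occurred in another gene. Its log2 ratio was 0.47 in MiwiR371W against wild type and −0.07 in MiwiΔIns against wild type. It was named because its list had no gene past the size rule.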
